A study of Ovis aries with 22 samples.

Results

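Cell division genes were followed in the sinus wall of sheep (Ovis aries) great arteries, where they were measured by RNA sequencing. The set holds 34 genes of mitosis and DNA replication, taken by name from a fixed list, out of 26200 gene symbols in the count tables. It comprises MKI67 and TOP2A, the cyclins CCNA2, CCNB1, CCNB2, CCNE1 and CCNE2 with CDK1, 7 mitotic kinases, checkpoint and anaphase regulators (CDC20, BUB1, BUB1B, AURKA, AURKB, PLK1 and BIRC5), 8 spindle, motor and kinetochore genes (KIF11, KIF20A, KIF23, NUSAP1, TPX2, CENPE, CENPF and ASPM), 8 origin licensing and helicase genes (CDC6, CDC45 and MCM2 to MCM7), and RRM2, TYMS and PCNA. All 34 were present in the tables. After a filter on low counts 33 could be tested, and CDC6 could not.

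The sinus is the bulging first segment of a great artery above its valve. In the Ross procedure the pulmonary root is moved to the aortic position, and once there it is termed the pulmonary autograft. Its sinus was sampled in 3 operated sheep, 6 months after surgery. Native pulmonary sinus and native aortic sinus came from 4 other sheep, named D3 to D6 in the labels, each of which gave both tissues. Those sheep were not operated on according to the study's design text, but aortic replicate 1 (D3) carries the treatment label of Ross surgery. It was kept in the aortic group, and every comparison was also made without it. Age, sex and breed are not stated in the labels used here, and only 1 time after surgery was sampled. No native tissue of the operated animals was analysed, so the effect of surgery and the difference between animals cannot be told apart. Each library was sequenced in 2 runs, which were summed.

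A cell that enters division first raises D-type cyclins, which with CDK4 or CDK6 release E2F transcription factors from the retinoblastoma protein. E2F then drives cyclin E, the MCM helicase, PCNA and the enzymes of nucleotide supply. Cyclin A, cyclin B, CDK1, the Aurora and Polo kinases, the kinesins and Ki-67 follow through S phase to mitosis. Smooth muscle cells of a healthy adult artery divide rarely, whereas MCM and PCNA transcripts are also found in cells that are not cycling. In bulk tissue, fewer dividing cells and less RNA per dividing cell cannot be told apart.

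The 11 libraries held 17380599 to 20741334 counts. The smooth muscle myosin heavy chain gene MYH11 was abundant in each of them. It was between 12356 and 22730 CPM (a gene's share of its library's counts, scaled by TMM) in the native libraries. In the autografts it was lower, at 5184, 6731 and 10329 CPM. Some libraries stood apart in the cell division genes irrespective of group. Aortic replicate 2 was the highest of the 11 libraries for 18 of the 34 genes, and the highest of the 8 native libraries for 21. Aortic replicate 1 was the lowest of the 11 for 7 genes, all of them mitosis or cyclin genes. Pulmonary replicate 1 was the highest for 3 genes, and autograft replicate 1 was the highest of the 3 autografts for 19. By their labels the high aortic replicate 2 came from the same animal, D4, as pulmonary replicate 2, which was the lowest of the 11 for 4 genes. The high pulmonary replicate 1 and the low aortic replicate 1 both came from D3. Low libraries were not confined to these animals. Pulmonary replicate 3 and aortic replicate 3, both of D5, were the lowest of the 11 for 5 and 4 genes. Over all genes, deviations from the group means correlated negatively within D3 and D4 (−0.18 and −0.13). Whether the labels of these animals are exchanged was not tested, and the fits by animal take them as given. The edgeR comparisons of the groups and the spread between libraries were therefore also obtained without aortic replicate 2 and pulmonary replicate 1, a choice made after the data were seen. The counts of fully separated groups, the native ranges, the summed levels and the counts of the other gene lists were not.

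**Figure D1:**
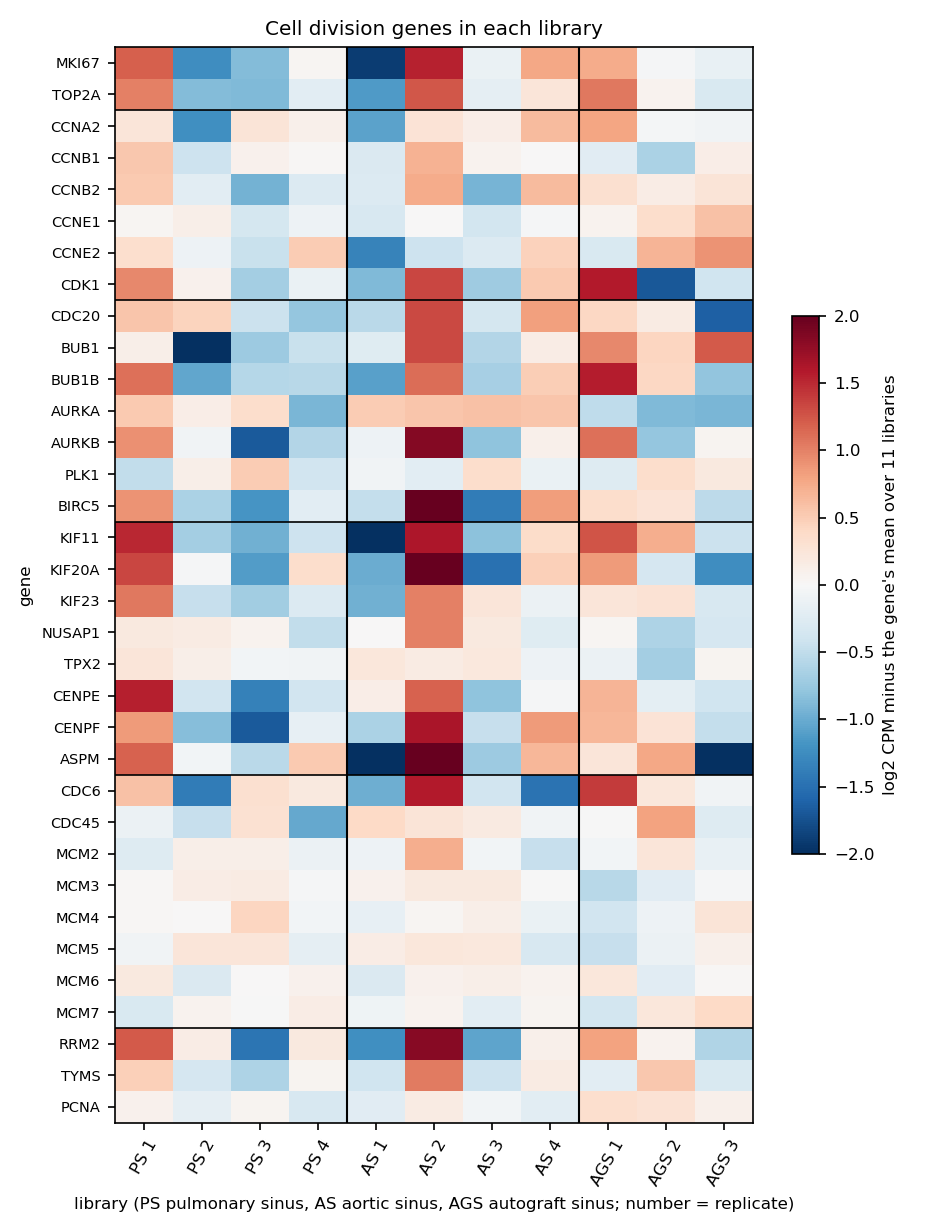
Level of the 34 cell division genes (rows, grouped by role) in each of the 11 libraries (columns: 4 pulmonary sinus, 4 aortic sinus, 3 autograft sinus). Colour gives log2 CPM minus the mean of the gene over the 11 libraries, and values past the ends of the scale take the end colour. Most mitosis rows are darkest red in aortic replicate 2, pulmonary replicate 1 and autograft replicate 1, while PLK1, TPX2 and the MCM rows stay pale.

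The first comparison asked whether genes of dividing cells differed between the autograft and native pulmonary sinus, the tissue the autograft was made from. No cell division gene passed the test: 0 of 33 had an adjusted p under 0.05 in edgeR, where 11.3% of all 14979 genes tested did. At an unadjusted p under 0.05 there were 4 of 33 (12.1%), against 30.6% of all genes, and they went both ways, BUB1 and PCNA higher and AURKA and MCM3 lower in the autograft. The count of called genes was also 0 by DESeq2 and by limma-voom. Of the 33 genes, 21 had a higher and 12 a lower estimate in the autograft, with a median log2 fold change of 0.13, against 0.0013 over all genes. All autograft libraries were on one side of all pulmonary ones for 2 of 33 genes (6.06%), BUB1 and PCNA, as for 22.1% of all genes. Without both aortic replicate 2 and pulmonary replicate 1, 1 of 30 genes passed (BUB1), beside 2567 of all 14761 genes tested, and the median was 0.36. The sign of the median was not steady either. Without autograft replicate 1 it was −0.08, with 12 genes higher and 21 lower in the autograft. With the authors' FPKM it was −0.03 to −0.12.

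Against native aortic sinus, the tissue of the position to which the root was moved, 0 of 33 genes passed in edgeR, where 2.38% of all genes did. An unadjusted p under 0.05 was found for 3 of 33 (9.09%), AURKA, MCM3 and PCNA, against 23% of all genes. Of the 33, DESeq2 called AURKA, beside 1469 of all 14979 genes, and limma-voom called 0. Estimates were higher in the autograft for 14 genes and lower for 19, with a median log2 fold change of −0.13, against 0.0018 over all genes. The libraries of both groups were fully separated for 3 of 33 genes (9.09%), CCNE1 above and AURKA and MCM3 below the aortic libraries, and for 20.6% of all genes. The sign of this median followed 1 library: without aortic replicate 2 it was 0.24, with 23 of 30 genes higher in the autograft.

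Between the native sinuses, 0 of 33 genes passed in edgeR and 0% of all genes did. At an unadjusted p under 0.05 there were 0 of 33, against 2.04% of all genes, and DESeq2 and limma-voom called 0 as well. Estimates were higher in aortic than in pulmonary sinus for 28 genes and lower for 5, with a median log2 fold change of 0.17, against 0.0033 over all genes. The native groups overlapped for each of the 33 genes, where 1.42% of all genes were fully separated. Without aortic replicate 2 the median was −0.09, with 10 of 30 genes higher in aortic sinus, and without pulmonary replicate 1 as well it was 0.05. Without both libraries of animal D3 it was 0.59, and 6 of 30 genes had an unadjusted p under 0.05, against 7.28% of all genes.

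The data bound large differences less tightly for these genes than for most. The median half-width of the 95% interval of a log2 fold change was 1.04 for the 33 genes against 0.50 for all genes in the comparison with pulmonary sinus. It was 1.04 against 0.49 in the comparison with aortic sinus, and 0.98 against 0.46 between the native sinuses. Intervals were wide for low mitosis genes such as ASPM and KIF20A and narrower for TPX2, PCNA and most MCM genes. Only 21 of the 34 genes had at least 10 counts in every library.

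**Figure D2:**
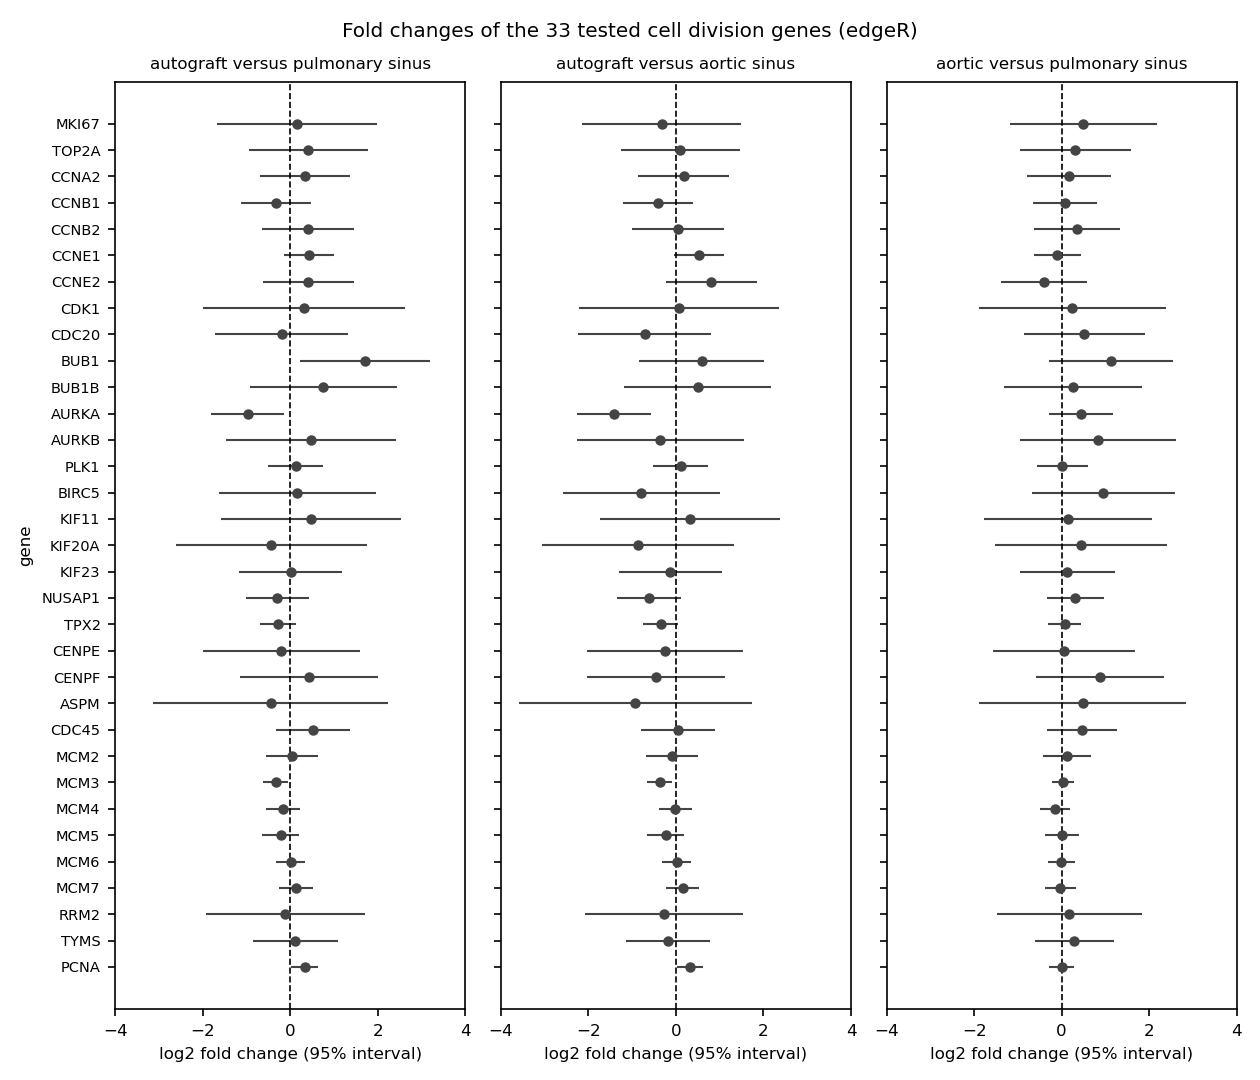
Log2 fold change (x axis) of the 33 tested cell division genes (y axis) in the 3 comparisons, from edgeR, with 95% intervals as bars and no change as the dashed line. Intervals are widest for low mitosis genes such as ASPM, KIF20A and CDK1 and narrow for most MCM genes, TPX2 and PCNA, and most span the dashed line.

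MKI67 encodes Ki-67, the coat protein of mitotic chromosomes used by pathologists to mark cycling cells. In pulmonary sinus it was at 2.03, 0.285, 0.422 and 0.858 CPM in replicates 1 to 4, and in aortic sinus at 0.152, 2.65, 0.746 and 1.5 CPM. In the autograft it was at 1.46, 0.815 and 0.738 CPM. The autograft values lay inside the range of both native groups, and the 3 groups overlapped. These levels rested on 3 to 53 counts per library, with a median of 14. The log2 fold change was 0.17 ± 0.83 (SE; 95% interval −1.66 to 1.99; edgeR adjusted p = 0.917) against pulmonary sinus and −0.33 ± 0.83 (−2.15 to 1.49; adjusted p = 0.845) against aortic sinus. Differences within those intervals are compatible with these data. Against pulmonary sinus the estimate was 0.92 without pulmonary replicate 1 and −0.21 without autograft replicate 1. Against aortic sinus it was 0.34 without aortic replicate 2.

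TOP2A encodes the topoisomerase that untangles replicated chromosomes, and it was the better counted of these 2 markers, with at least 29 counts in every library. It stood at 6.84, 1.77, 1.78 and 2.86 CPM in pulmonary sinus and at 1.47, 8.05, 2.93 and 3.97 CPM in aortic sinus. In the autograft it stood at 7.03, 3.49 and 2.67 CPM. One library of each group was high, namely pulmonary replicate 1, aortic replicate 2 and autograft replicate 1, and the same libraries were the highest of their groups for MKI67. Autograft replicate 1 was thus within the native range. The estimate was 0.41 ± 0.62 (95% interval −0.95 to 1.78; edgeR adjusted p = 0.690) against pulmonary sinus and 0.10 ± 0.62 (−1.26 to 1.46; adjusted p = 0.940) against aortic sinus. Against pulmonary sinus it was −0.10 without autograft replicate 1.

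Between the native sinuses the estimates were 0.49 ± 0.77 for MKI67 and 0.31 ± 0.58 for TOP2A, both with an edgeR adjusted p = 1, and both were below 0 without aortic replicate 2 (−0.17 and −0.25). The genes with the smallest p in this comparison were BUB1 (1.13 ± 0.64), AURKA (0.45 ± 0.33), CENPF (0.88 ± 0.67), CDC45 (0.47 ± 0.36), BIRC5 (0.95 ± 0.75), NUSAP1 (0.32 ± 0.30), AURKB (0.83 ± 0.81) and MCM4 (−0.15 ± 0.16), as aortic minus pulmonary log2 fold change ± SE, each with an edgeR adjusted p = 1. Without aortic replicate 2 the estimate of NUSAP1 was −0.033.

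**Figure D3:**
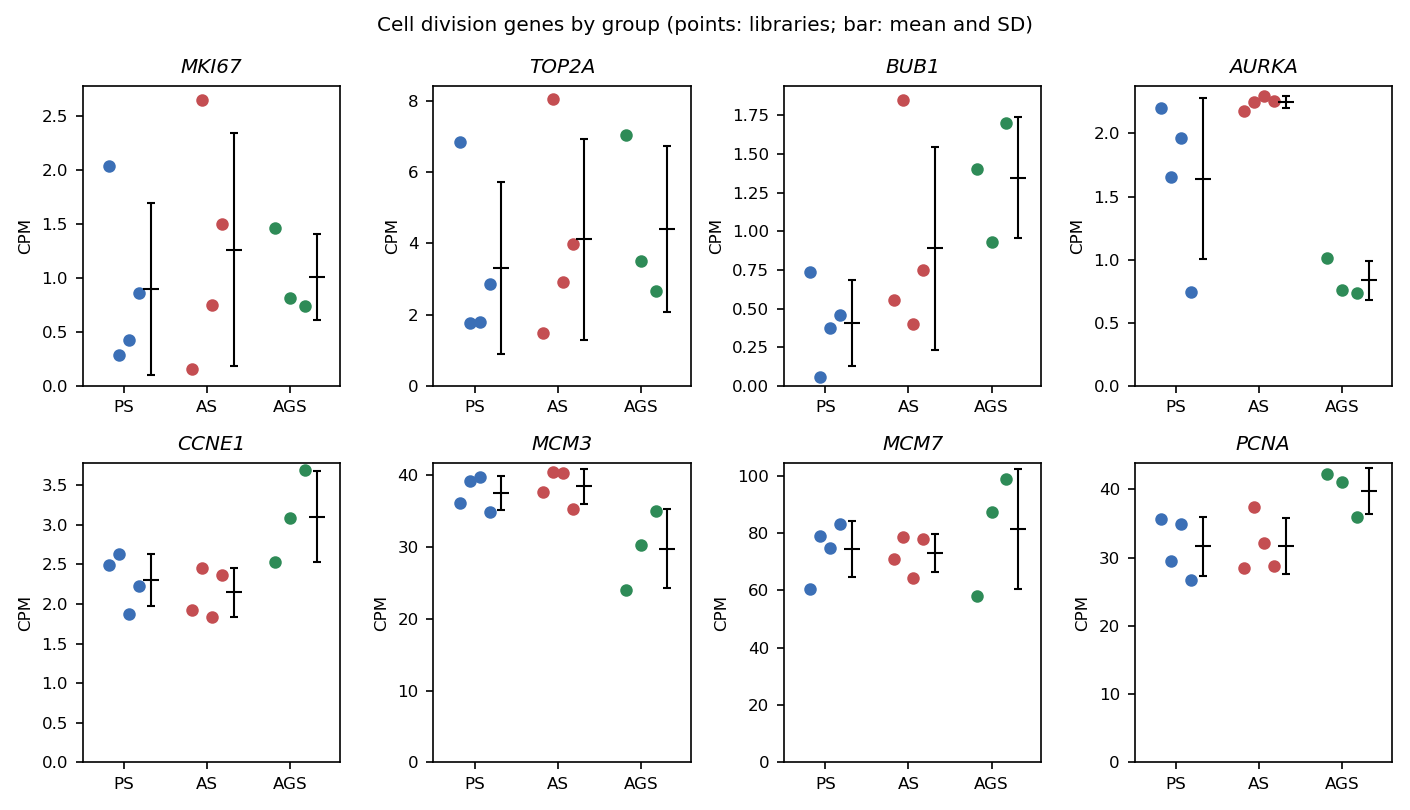
Level (y axis, CPM) of 8 cell division genes in pulmonary (PS), aortic (AS) and autograft sinus (AGS). Points are libraries in replicate order, and the bar beside them is the mean with the SD (n = 4, 4 and 3). MKI67 and TOP2A have the same highest library in each group, AURKA is between 0.738 and 1.01 CPM in the autografts, and MCM3, MCM7 and PCNA vary little between the native libraries.

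The cyclins and CDK1 drive the phases of the cycle. CCNA2, the cyclin of S phase and G2, stood at 3.05, 1.03, 3.09 and 2.74 CPM in pulmonary sinus, at 1.17, 3.15, 2.81 and 4.03 CPM in aortic sinus, and at 4.50, 2.5 and 2.44 CPM in the autograft. The 3 groups overlapped, with the highest value of all in autograft replicate 1. CCNB1, the mitotic cyclin that activates CDK1, lay between 1.37 and 3.1 CPM in the native libraries and was at 1.58, 1.16 and 2.04 CPM in the autograft. CCNB2, its relative, lay between 0.689 and 2.45 CPM in the native libraries and was at 1.80, 1.57 and 1.70 CPM in the autograft, inside that range. CDK1, the kinase of mitosis, had 0 to 18 counts per library. Its 0 counts in autograft replicate 2 allow a level of up to 0.173 CPM (3 counts, counting error only), while autograft replicate 1 had the highest level of all libraries, at 1.01 CPM.

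The E-type cyclins act earlier, at entry into S phase, and CCNE1 varied less between libraries than the mitotic cyclin CCNB2. CCNE1 was at 2.49, 2.63, 1.87 and 2.23 CPM in pulmonary sinus, at 1.93, 2.45, 1.84 and 2.36 CPM in aortic sinus, and at 2.53, 3.09 and 3.69 CPM in the autograft. All 3 autograft values lay above the aortic ones, and autograft replicate 1 lay below 1 pulmonary library. The difference did not pass in edgeR, with a log2 fold change of 0.53 ± 0.26 (adjusted p = 0.250) against aortic sinus and 0.43 ± 0.26 (adjusted p = 0.288) against pulmonary sinus. CCNE2 lay between 0.507 and 2.06 CPM in the native libraries and was at 1.13, 2.33 and 2.73 CPM in the autograft. Its estimate against aortic sinus was 0.81 ± 0.48 (edgeR adjusted p = 0.333). Over the 6 genes of the cyclin group, the median log2 fold change was 0.37 against pulmonary sinus and 0.12 against aortic sinus, and 0 were called.

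Among the mitotic kinases and checkpoint genes, AURKA and BUB1 had the largest estimates against pulmonary sinus. AURKA encodes Aurora kinase A, which acts at centrosomes and on the spindle. It was at 2.18, 2.25, 2.3 and 2.26 CPM in aortic sinus, at 2.20, 1.66, 1.97 and 0.743 CPM in pulmonary sinus, and at 1.01, 0.757 and 0.738 CPM in the autograft. The autograft values lay below every native library except pulmonary replicate 4. The log2 fold change was −1.42 ± 0.38 (95% interval −2.26 to −0.58) against aortic sinus, which missed the threshold in edgeR (adjusted p = 0.0755). Against pulmonary sinus it was −0.97 ± 0.38 (−1.81 to −0.13; edgeR adjusted p = 0.113). AURKA passed with DESeq2 against aortic sinus (adjusted p = 0.0158), with the authors' FPKM in the 3 tests on the second run, and without pulmonary replicate 4 (edgeR adjusted p = 0.0481). Against pulmonary sinus it passed with log2(FPKM + 0.1) (limma adjusted p = 0.0456) and without pulmonary replicate 4 (edgeR adjusted p = 0.0464). Its estimate was negative in both comparisons under every alternative that was run. The aortic values of AURKA were close to each other even though aortic replicates 1 and 2 were the lowest and the highest library for MKI67.

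BUB1 encodes a kinase of the spindle checkpoint and was at 1.41, 0.932 and 1.70 CPM in the autograft, above the 0.734, 0.0571, 0.375 and 0.457 CPM of pulmonary sinus. The pulmonary replicate 2 value rests on 1 count. In aortic sinus it was at 0.558, 1.85, 0.402 and 0.752 CPM, so that aortic replicate 2 exceeded the autografts. The log2 fold change against pulmonary sinus was 1.72 ± 0.68 (95% interval 0.23 to 3.20; edgeR adjusted p = 0.115). Without both aortic replicate 2 and pulmonary replicate 1 it was 2.14 and passed (edgeR adjusted p = 0.042). BUB1B, which encodes the checkpoint protein BUBR1, lay between 0.457 and 2.45 CPM in native tissue and was at 3.37, 1.46 and 0.568 CPM in the autograft, where only replicate 1 was above the native range.

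The other kinases and anaphase regulators followed the high libraries or were steady. BIRC5, which encodes survivin of the chromosomal passenger complex, reached 4.25 CPM in aortic replicate 2, lay between 0.287 and 1.86 CPM in the other native libraries, and was at 1.24, 1.16 and 0.625 CPM in the autograft. AURKB, the kinase of that complex, was at 2.05 CPM in aortic replicate 2 and at 1.18, 0.233 and 0.511 CPM in the autograft. CDC20, the activator of the anaphase-promoting complex, was also highest in aortic replicate 2 (2.10 CPM) and was lowest in autograft replicate 3 (0.170 CPM). PLK1, the Polo kinase of mitotic entry, did not share this pattern. It was at 3.73, 5.77, 7.59 and 4.06 CPM in pulmonary sinus, at 5.07, 4.60, 6.83 and 4.83 CPM in aortic sinus, and at 4.44, 6.81 and 6.08 CPM in the autograft, and pulmonary replicate 1 was its lowest library.

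Most spindle and kinetochore genes were low and uneven between libraries. KIF11, the kinesin that separates spindle poles, was at 2.49, 0.457, 0.375 and 0.572 CPM in pulmonary sinus, at 0.101, 2.70, 0.402 and 1.07 CPM in aortic sinus, and at 2.08, 1.40 and 0.568 CPM in the autograft. KIF20A, a kinesin of cytokinesis, was at 1.92, 0.685, 0.281 and 0.915 CPM in pulmonary sinus, at 0.304, 3.60, 0.172 and 1.02 CPM in aortic sinus, and at 1.35, 0.524 and 0.227 CPM in the autograft. In both, pulmonary replicate 1, aortic replicate 2 and autograft replicate 1 were the highest of their groups. CENPF and CENPE, of the outer kinetochore, ranged from 0.328 to 4.05 CPM and from 0.141 to 1.64 CPM over the native libraries, and their autograft values, 0.852 to 2.02 CPM and 0.341 to 0.844 CPM, lay inside. KIF23, of the central spindle, was between 1.07 and 4.63 CPM in native tissue and at 2.59, 2.68 and 1.70 CPM in the autograft. ASPM, of the spindle poles, had 0 counts in aortic replicate 1 and in autograft replicate 3, which allow up to 0.151 and 0.165 CPM, and reached 2.10 CPM in aortic replicate 2.

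TPX2 and NUSAP1, which organise spindle microtubules, were better counted. TPX2, also the activator of Aurora kinase A, was at 15.8, 14.3, 12.8 and 12.6 CPM in pulmonary sinus, at 15.5, 15.0, 15.4 and 12.3 CPM in aortic sinus, and at 12.2, 8.27 and 13.8 CPM in the autograft. Autograft replicates 1 and 2 were the lowest libraries, and replicate 3 lay inside the native range. Its log2 fold change was −0.28 ± 0.19 (edgeR adjusted p = 0.330) against pulmonary and −0.35 ± 0.19 (adjusted p = 0.283) against aortic sinus. NUSAP1 lay between 3.54 and 10.3 CPM in native tissue, again highest in aortic replicate 2, and was at 5.17, 3.26 and 3.98 CPM in the autograft. Its estimate was −0.62 ± 0.33 (edgeR adjusted p = 0.287) against aortic sinus. Of the 8 genes of the spindle group, 5 had a lower estimate in the autograft against pulmonary sinus and 7 against aortic sinus, with medians of −0.24 and −0.40, and 0 were called.

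The MCM genes encode the replicative helicase, and MCM3, MCM6 and MCM7 were the most abundant of them. MCM3 was at 36.1, 39.2, 39.8 and 34.9 CPM in pulmonary sinus, at 37.6, 40.5, 40.3 and 35.3 CPM in aortic sinus, and at 24.1, 30.2 and 35 CPM in the autograft. The autograft values lay below every aortic library, and 1 of them lay just above the lowest pulmonary library. The log2 fold change was −0.37 ± 0.13 (95% interval −0.65 to −0.09; edgeR adjusted p = 0.128) against aortic sinus and −0.33 ± 0.13 (−0.61 to −0.05; adjusted p = 0.106) against pulmonary sinus. Without autograft replicate 3 the difference from pulmonary sinus passed, at −0.47 (edgeR adjusted p = 0.0462). MCM5 had an estimate of −0.21 ± 0.19 (edgeR adjusted p = 0.487) against pulmonary sinus, from 10.2, 13.0 and 15.2 CPM in the autograft and 11.3 to 16.7 CPM in the native libraries. Against aortic sinus its estimate was −0.23 ± 0.19 (edgeR adjusted p = 0.506).

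The subunits of the helicase did not move together. MCM7 was at 58.2, 87.2 and 98.8 CPM in the autograft and between 60.6 and 83.1 CPM in the native libraries, so that autograft replicate 1 was the lowest and replicates 2 and 3 the highest libraries. MCM6 was at 50.7, 37 and 44.1 CPM in the autograft and between 35.4 and 49.4 CPM in native tissue, with autograft replicate 1 the highest library. MCM2 was at 7.26, 8.91 and 6.76 CPM in the autograft, inside the native range of 5.42 to 12.6 CPM, and MCM4 was at 16.8, 20.2 and 26.1 CPM against 19.4 to 29.3 CPM. CDC45, which joins the MCM ring at active origins, was at 1.86, 3.32 and 1.53 CPM in the autograft and between 0.858 and 2.49 CPM in native tissue, with an estimate of 0.52 ± 0.39 (edgeR adjusted p = 0.394) against pulmonary sinus. CDC6, which loads the helicase and could not be tested, had 0 to 16 counts per library and was highest in aortic replicate 2 (0.800 CPM) and autograft replicate 1 (0.675 CPM). Its 0 counts in pulmonary replicate 2 and aortic replicate 4 allow up to 0.168 and 0.162 CPM.

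PCNA encodes the sliding clamp of DNA polymerase, which also serves DNA repair. It was at 42.3, 41 and 35.9 CPM in the autograft, at 35.6, 29.5, 34.9 and 26.7 CPM in pulmonary sinus, and at 28.5, 37.5, 32.1 and 28.8 CPM in aortic sinus. The lowest autograft library was just above the highest pulmonary one and below aortic replicate 2. PCNA had a log2 fold change of 0.33 ± 0.14 against both native sinuses, with an edgeR adjusted p = 0.135 against pulmonary and 0.189 against aortic sinus, and it did not pass under any alternative. RRM2, the small subunit of ribonucleotide reductase, and TYMS, thymidylate synthase, supply nucleotides. In the native libraries both were high where many mitosis genes were. In the autograft TYMS was highest in replicate 2 (3.67 CPM) and at 2.14 and 1.99 CPM in replicates 1 and 3. RRM2 ranged from 0.468 to 5.35 CPM and TYMS from 1.59 to 5.25 CPM over the native libraries, both highest in aortic replicate 2, and all autograft values of both genes lay inside these ranges.

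The spread between libraries differed widely within the set. After removal of the counting error expected from the depth, the coefficient of variation over the 11 libraries was 1.01 for ASPM, 0.990 for KIF20A, 0.889 for BIRC5, 0.693 for MKI67 and 0.586 for TOP2A. Genes such as CDC45 (0.291), AURKA (0.375), KIF23 (0.476) and CDC20 (0.557) lay in between. It was 0.117 for MCM6, 0.133 for MCM3, 0.148 for PCNA, 0.150 for TPX2 and 0.166 for CCNE1. Without aortic replicate 2 and pulmonary replicate 1 it fell to 0.652 for ASPM, 0.608 for KIF20A and 0.545 for MKI67 but not for every mitosis gene, being 0.832 for BUB1B (0.721 with all libraries), 0.663 for BUB1 (0.643) and 0.418 for AURKA. It was 0.123 for MCM6 and 0.164 for PCNA. Levels per gene length were taken from the authors' FPKM of the second run. The median over libraries was 28.7 FPKM for MCM7, above 83.9% of listed genes, 14.6 FPKM for PCNA (71.3%) and 12.9 FPKM for MCM3 (68.9%). It was 0.0861 FPKM for MKI67, above 2.94% of listed genes, 0.504 FPKM for TOP2A (14.6%) and 0.0141 FPKM for ASPM (0.179%). The files hold no measure of how many cells this represents.

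The autograft values were also set against the range of all 8 native libraries. For 17 of the 34 genes all 3 autograft values lay within the native range, and for 29 the autograft mean did. By kind, all 3 values were within the range for 13 of 23 mitosis and cyclin genes and for 4 of 11 replication genes. For 0 genes did all 3 autografts lie above the native range, and for 0 below it. The same was not counted over all genes, so whether these counts are usual cannot be told. Summed by role, MKI67 and TOP2A came to 2.06 to 8.87 CPM in pulmonary, 1.62 to 10.7 CPM in aortic and 3.41 to 8.49 CPM in autograft sinus. The spindle group came to 20.9 to 35.5, 23.4 to 43.4 and 18.8 to 26.7 CPM, and the licensing group to 190 to 215, 189 to 220 and 170 to 228 CPM.

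The other genes of the pathway were counted in 4 lists. Of 58 other mitosis genes tested, 2 rose and 0 fell against pulmonary sinus, with a median log2 fold change of 0.17, and 0 passed against aortic sinus (median 0.02; 3 at an unadjusted p under 0.05; 0 by DESeq2). Those that rose were PTTG1, which encodes securin, the inhibitor of chromatid separation, by 0.82 ± 0.19 (edgeR adjusted p = 0.0247), and CIT, the citron kinase of cytokinesis, by 1.77 ± 0.49 (adjusted p = 0.0424). PTTG1 was at 9.11, 11 and 12.2 CPM in the autograft and between 4.92 and 7.63 CPM in pulmonary sinus. Of 48 other DNA replication genes, 1 rose and 0 fell against pulmonary sinus (median 0.07), and 0 passed against aortic sinus (median 0.02; 4 at an unadjusted p under 0.05; 2 by DESeq2). It was DBF4, the activator of the origin-firing kinase CDC7, at 4.11, 4.13 and 4.49 CPM in the autograft and 1.54 to 2.88 CPM in pulmonary sinus, a rise of 1.0 ± 0.27 (edgeR adjusted p = 0.0412). These shares, 2 of 58 and 1 of 48, were below the 11.3% of all genes called against pulmonary sinus. There 8 mitosis and 7 replication genes had an unadjusted edgeR p under 0.05, against 30.6% of all genes. DESeq2 called 4 of each list there, and 2997 of all 14979 genes. Against aortic sinus 23% of all genes had an unadjusted p under 0.05, and DESeq2 called 1469 of all genes. The calls of PTTG1, CIT and DBF4 depended on single libraries and on the processing. That of PTTG1 ended without pulmonary replicate 2, 3 or 4 or autograft replicate 2 or 3 (adjusted p up to 0.0682). That of CIT ended without pulmonary replicate 2, 3 or 4, aortic replicate 2 or autograft replicate 1 or 2 (up to 0.130). That of DBF4 ended without any 1 of the 11 libraries but pulmonary replicate 1 (up to 0.106). With the 2 groups fitted alone each call ended (edgeR adjusted p = 0.077 for PTTG1, 0.058 for CIT and 0.0914 for DBF4). Each also ended with 1 of the runs alone and in at least 1 test on the authors' FPKM. There the limma adjusted p reached 0.0679 for PTTG1, 0.153 for CIT and 0.257 for DBF4.

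Among genes that control entry into the cycle, CCND1 rose against both native sinuses. Of 12 tested genes among G1 cyclins, their kinases and E2F activators, 2 rose and 0 fell against pulmonary sinus (median 0.11), and 1 rose and 0 fell against aortic sinus (median 0.06), where 11.3% and 2.38% of all genes were called. CCND1, which encodes cyclin D1, was at 207, 178 and 158 CPM in the autograft. It was at 102, 65.3, 97.2 and 118 CPM in pulmonary sinus and at 108, 74.8, 83.3 and 100.3 CPM in aortic sinus, so that every autograft exceeded every native library. The rise was 0.92 ± 0.19 (edgeR adjusted p = 0.0182) against pulmonary sinus and 0.98 ± 0.19 (adjusted p = 0.0346) against aortic sinus. The first call ended without pulmonary replicate 3 (adjusted p = 0.0517) or autograft replicate 2 (0.0509), and the second without any 1 of the 4 aortic libraries, pulmonary replicate 3 or autograft replicate 1 or 2 (up to 0.0994, without aortic replicate 3).

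CCND3, which encodes cyclin D3, a D-type cyclin also abundant in lymphocytes, rose by 1.17 ± 0.26 against pulmonary sinus (edgeR adjusted p = 0.0220). It was at 20.8, 56.1 and 44.4 CPM in the autograft, at 15.4 to 20.0 CPM in pulmonary sinus and at 19.4 to 26.2 CPM in aortic sinus. Only autograft replicates 2 and 3 lay above the aortic libraries. CCND2, the other D-type cyclin, named here after its values were seen, was not called in either comparison, with means of 13.3 CPM in the autograft, 15.4 CPM in pulmonary and 14.7 CPM in aortic sinus. The call ended without pulmonary replicate 2 (adjusted p = 0.0632), pulmonary replicate 3 (0.0603) or autograft replicate 2 (0.0792), and with the 2 groups fitted alone (0.0657).

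Genes that hold the cycle back were counted in the same way. Of 18 tested genes among CDK inhibitors, pocket proteins and arrest genes, 3 rose and 0 fell against pulmonary sinus (median 0.19). Against aortic sinus 1 rose and 0 fell (median 0.18). Of all genes, 11.3% and 2.38% were called in these 2 comparisons, and with so few listed genes no excess is read from these counts. GAS1, a growth arrest gene first described in quiescent fibroblasts, was at 77.5, 50.8 and 51.3 CPM in the autograft. It was at 31.9, 25.1, 30.0 and 34.5 CPM in pulmonary sinus and at 38.7, 32.4, 23.9 and 25.6 CPM in aortic sinus, so that every autograft exceeded every native library. The rise was 0.98 ± 0.20 (edgeR adjusted p = 0.0167) against pulmonary sinus and 0.99 ± 0.20 (adjusted p = 0.0347) against aortic sinus. The first call held in each of 27 alternatives, and the second ended without aortic replicate 2, 3 or 4, pulmonary replicate 3 or autograft replicate 1 or 2 (adjusted p up to 0.0982, without aortic replicate 3). The second call also ended with the 2 groups alone (edgeR adjusted p = 0.0609) and with log2(FPKM + 1) of run 1 (limma adjusted p = 0.0549).

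BTG1, an antiproliferative gene, rose against pulmonary sinus by 0.88 ± 0.26 (edgeR adjusted p = 0.0481). It was at 179, 363 and 334 CPM in the autograft and at 134 to 188 CPM in pulmonary sinus, so the groups overlapped in range. The call of BTG1 ended without pulmonary replicate 2, 3 or 4, aortic replicate 1 or 4 or autograft replicate 2 or 3 (adjusted p up to 0.153). It also missed the threshold in limma-voom, both without a block (adjusted p = 0.0636) and with the animal as a random block (0.062). The same held with the 2 groups fitted alone (edgeR adjusted p = 0.0788) and with the authors' FPKM (limma adjusted p = 0.127 to 0.138).

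**Figure D4:**
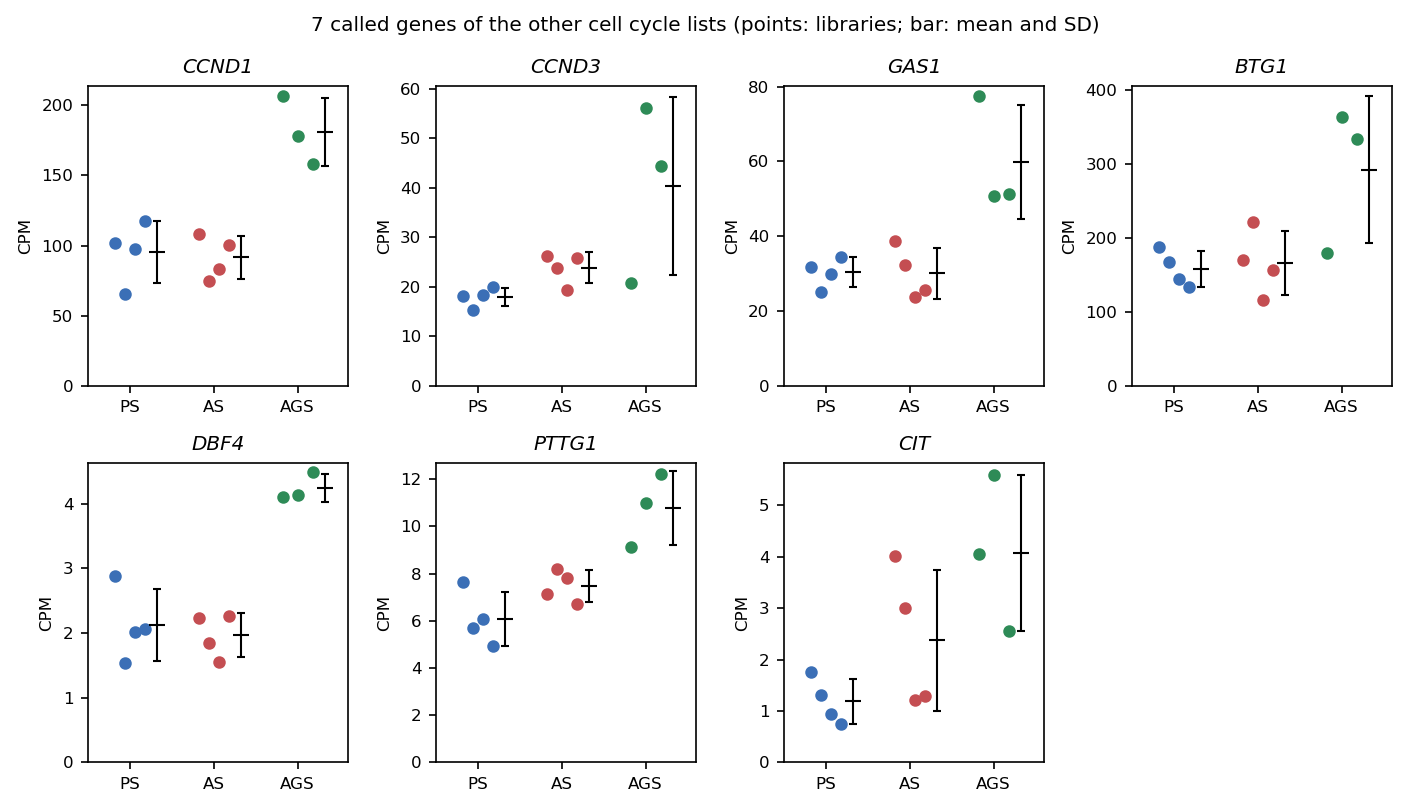
Level (y axis, CPM) of 7 called genes of the other cell cycle lists in pulmonary (PS), aortic (AS) and autograft sinus (AGS). Points are libraries in replicate order, and the bar beside them is the mean with the SD (n = 4, 4 and 3). CCND1 and GAS1 are higher in each autograft than in each native library, while CCND3 and BTG1 are highest in autograft replicates 2 and 3.

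The makeup of the tissue differed between the same groups. For the counts of called markers below, edgeR called 11.3% of all genes against pulmonary sinus and 2.38% against aortic sinus, in either direction. Of 13 T and natural killer cell markers, 11 rose against pulmonary sinus and 6 against aortic sinus in edgeR. Their summed level was 47.9 to 54.2 CPM in the autograft, 4.0 to 10.5 CPM in pulmonary and 8.52 to 13.6 CPM in aortic sinus, and CD3D, CD3G and PRF1 were among the markers at 0 in 1 or 2 libraries each. Of 13 macrophage markers, 5 rose against pulmonary sinus and 0 against aortic sinus, with sums of 1453, 1044 and 224 CPM in the autograft, 81.8 to 376 CPM in pulmonary and 162 to 501 CPM in aortic sinus. Of 10 fibroblast markers, 5 rose against pulmonary and 3 against aortic sinus, with sums of 26520 to 37850 CPM in the autograft, 8017 to 18660 CPM in pulmonary and 13450 to 15830 CPM in aortic sinus. Of 7 smooth muscle markers, 3 fell against pulmonary and 1 against aortic sinus, with sums of 24070 to 47750 CPM in the autograft, 51130 to 83700 CPM in pulmonary and 49100 to 69510 CPM in aortic sinus. The fibroblast, macrophage, endothelial and smooth muscle lists had no marker at 0 in any library. The part of these cells in the levels of CCND1, CCND3, GAS1 and the other cell cycle genes was not tested.

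Among the native libraries, the 2 high in many mitosis genes also had the highest endothelial and adipocyte sums, but not the highest macrophage sums. The 11 endothelial markers summed to 711 CPM in aortic replicate 2 and 501 CPM in pulmonary replicate 1, and to 172 to 386 CPM in the other 6 native libraries. The 8 adipocyte markers summed to 498 and 288 CPM in these 2 libraries and to 90.4 to 265 CPM in the others. Some single markers of both lists peaked elsewhere among the native libraries. ESAM (33.2 CPM) and PLIN4 (75.4 CPM) did so in pulmonary replicate 2, and ERG (47.2 CPM) in aortic replicate 1. The macrophage sum was 404 CPM in aortic replicate 2 and 376 CPM in pulmonary replicate 1. It was 501 CPM in aortic replicate 4 and 397 CPM in aortic replicate 1. In the autografts the order was different. Autograft replicate 1, the highest of the 3 for MKI67 and TOP2A, had the lowest endothelial sum (203 CPM, against 1837 and 1057 CPM) and the lowest adipocyte sum (54.5 CPM, against 938 and 505 CPM), and the highest macrophage sum. The part of these cells in the spread of the mitosis genes was not tested.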

How the data were processed

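Per the labels' protocols, TRIzol RNA went into TruSeq libraries. Of the submitters' processing notes, the aligners listed are STAR 2.5.2b and Bowtie2 2.3.3.1, beside featureCounts 1.5.3 and cutadapt, without their order of use. The sources used here do not state the genome build, annotation or strand setting, so reads of overlapping or antisense genes cannot be separated. The deposited tables, 1 of each kind per run, hold raw counts for 26200 symbols and the authors' FPKM for 15272 (run 1) and 15080 genes (run 2). The FPKM were made equal in distribution between libraries and hold no 0, and CDC6 (both runs) and CDK1 (run 2) are not among their genes. They served as an alternative and for levels per length. Symbols were matched to RefSeq ARS-UI_Ramb_v3.0 for 18717 of 26200. Sequences were not used here, and a planned count of promoter motifs was not made.

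Counts of both runs were added, giving 17380599 to 20741334 per library. A row without a gene name (at most 0.000522% of a library) was left out. Genes passed edgeR's filterByExpr by group (minimum count 10), which left 14979. With TMM scaling, all 3 groups entered 1 quasi-likelihood fit (edgeR 4.0.16 in R 4.3.3; no block), and a gene was called at a Benjamini-Hochberg adjusted p under 0.05 over all genes. The 95% intervals come from the SE of that fit. CPM use the TMM scaling, and log2 CPM have a prior count of 2. Limits at 0 counts (3 counts) cover counting error only, whereas the intervals also include the spread between libraries. Reads carry no molecular identifiers. Replicates are separate animals per the labels. Animals D3 to D6 pair the native libraries by label. Deviations from the group means correlated within an animal by −0.18 (D3), −0.13 (D4), 0.44 (D5) and 0.45 (D6).

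The 34 genes and all lists were chosen with earlier results of these data known. Levels could be given for all 34. Fold changes and tests were given, per comparison, for called genes, the 8 with the smallest p, MKI67 and TOP2A, and for up to 4 called genes of each other list, of which 1 is not reported here. Alternatives were RLE and upper quartile scaling, no filter or 1 CPM in 3 libraries, DESeq2 1.42.0, limma-voom (limma 3.58.1), the 2 groups alone, each library or animal D3 left out, each run alone, limma on log2(FPKM + 1) or log2(FPKM + 0.1), and the animal as a block. The tests were tried on simulated counts.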

Additional observations from a re-analysis of the deposited data

Results flagged for a closer look

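Of 68 groups of 4 native values (34 genes in 2 tissues), 5 held a library far from the other 3 by Dixon's test, where chance alone gives about 1 in 20. CCNA2 was at 1.03 CPM in pulmonary replicate 2, against 2.74 to 3.09 CPM in the other pulmonary libraries. TPX2 was at 12.3 CPM and MCM5 at 11.3 CPM in aortic replicate 4, against 15.0 to 15.5 CPM and 15.8 to 16.7 CPM in the other aortic libraries. MCM4 was at 29.3 CPM in pulmonary replicate 3, against 20.9 to 22.0 CPM. MCM6 was at 35.6 CPM in aortic replicate 1, against 45.5 to 47.1 CPM. The 3 autografts were too few for this test.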

How the results depend on the processing

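The count of called cell division genes stayed at 0 except where it was 1. Against pulmonary sinus this 1 was BUB1 without both aortic replicate 2 and pulmonary replicate 1, and AURKA with log2(FPKM + 0.1). Against aortic sinus it was AURKA with DESeq2, log2(FPKM + 1) of run 2, log2(FPKM + 0.1), or a minimum of 1 FPKM. With single libraries left out the count was 0 to 1 in both comparisons (AURKA without pulmonary replicate 4 in both, MCM3 without autograft replicate 3 against pulmonary sinus) and 0 between the native sinuses. The count of all genes against pulmonary sinus was 2997 with DESeq2, 479 with the 2 groups alone, 2567 without both libraries, and 452 to 2753 with 1 left out. Against aortic sinus it was 1469 with DESeq2, 110 without animal D3, and 25 to 576 with 1 left out. With the animal as a replicate block in a paired fit of the 8 native libraries, 0 of 30 cell division genes and 0 of all genes were called. With the animal as a random block in limma-voom, 1611, 361 and 0 of all genes and 0 cell division genes were called. Among the cell cycle genes named here only BTG1 was no longer called there. Its call was also missing in limma-voom without the block (adjusted p = 0.0636).

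Of 1067 single-gene results, 946 kept direction and side of the threshold, 88 lost the call, 9 gained one and 24 reversed, and the causes were not tested. Against pulmonary sinus MKI67 was −0.027 (run 1) and −0.003 (run 2) with log2(FPKM + 1), where TOP2A was −0.12 in run 1. With 1 or both of the high native libraries, or any other library, left out MKI67 was −0.21 to 0.94 and TOP2A −0.10 to 1.04. Against aortic sinus MKI67 was 0.19 with limma-voom, 0.20 with the random block and 0.34 without both libraries, and −0.70 to 0.34 with 1 left out. There TOP2A was −0.18 without animal D3, −0.030 and −0.084 with log2(FPKM + 1) of runs 1 and 2, −0.13 with log2(FPKM + 0.1), and −0.41 to 0.67 with 1 left out. Between the native sinuses TOP2A was −0.28 in run 1 alone and −0.089 with log2(FPKM + 1) of run 1, where CDC45 was −0.056. With 1 library left out there, NUSAP1 was −0.033 to 0.47, MKI67 −0.17 to 1.26 and TOP2A −0.25 to 0.93. Low counts limit MKI67, CDK1, BUB1, AURKB, KIF11, KIF20A, CENPE, ASPM and CDC6 most.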

Other observations

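Autograft replicate 3 differed from the other libraries in an erythroid gene. ALAS2, the heme synthesis enzyme of red cell precursors, was at 38.2 CPM there and at 0.150 CPM or less in the other 10 libraries. The red cell membrane gene SLC4A1 was at 0.284 CPM in that library and at 0 in the others, and AHSP, the alpha globin stabilising protein gene, was at 0.0568 CPM there and at 0.200 CPM or less in the others. These values enter no comparison of the cell division genes.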
